A study of Drosophila melanogaster with 12 samples.

Results

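Roo was covered by 2 of the 215 rows of the transposon count tables, ROO_I (ROO_I:Pao:LTR in the tables) for the internal part and ROO_LTR for the long terminal repeat (LTR). These are the rows whose name starts with ROO_ and whose class is Pao. Roo was chosen by its read count, ROO_I having the highest mean count of all elements, so its share of reads is given as a description and without a test. ChIP-seq for histone H3 and for acetylated H3 lysine 23 (H3K23ac) had been done on Drosophila melanogaster ovaries, with 2 replicates for each antibody and knockdown, 8 libraries in all. The question was how H3K23ac over transposons changes when enok is knocked down.

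All females carried tj-GAL4, which drives expression in somatic cells of the ovary, and the nos driver GAL4::VP16-nos.UTR at CG6325[MVD1], which acts in the germline. They differed in the hairpin transgene at attP2. The control, GFP_KD, carried P{VALIUM20-EGFP.shRNA.1}attP2 and enok_KD carried P{TRiP.HMS02634}attP2. RNAi is listed as run at 29 °C for 2 to 3 days, and feeding on wet yeast as 1 to 2 days. The methods give these times for RNAi driven by MTD-Gal4, a driver set other than the one here. Adult females were 2 to 3 days old. Each replicate was a pool of ovaries from many females, so germline and somatic cells were read together. In such bulk material fewer cells of a type and less signal per cell cannot be told apart. The chromatin of both knockdowns came from separate crosses, and the number of roo copies in a cross and the histone signal per copy cannot be told apart from these reads. The 4 input libraries of the series were not analysed here.

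Roo is an LTR retrotransposon of the BEL/Pao group and one of the most abundant elements in the euchromatin of this fly. Its internal part encodes the proteins for reverse transcription and particle formation. The LTRs flank it on both sides and carry the signals that start and end transcription. Recombination between the LTRs of a copy can leave a solo LTR behind, so LTR and internal reads need not come from the same set of insertions. In the ovary, transposons are held down by Piwi-interacting RNAs and heterochromatin. Enok is a MYST-family acetyltransferase that acetylates H3K23, and H3 is the reference for how much nucleosome signal an element gives.

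Transposon reads per library ran from 411139 to 628808 for H3 and from 199303 to 370429 for H3K23ac. Replicates of GFP_KD differed by 5.402 and 2.67 times sampling noise (chi-square per degree of freedom over 210 elements, H3 and H3K23ac), and those of enok_KD by 48.0 and 37.4 times. The enok_KD libraries were thus the more variable ones. The authors call the replicates independent, and the sources do not say how libraries of the same number relate across groups. The p-values measure the spread between these samples.

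ROO_I gave 35491 and 40376 reads in the GFP_KD H3 libraries and 35982 and 33643 in the enok_KD H3 libraries. It gave 54218 and 44414 reads in GFP_KD H3K23ac and 32163 and 48003 in enok_KD H3K23ac. As a share of all transposon reads, these were 6.51% and 6.42% in GFP_KD H3 and 8.07% and 8.18% in enok_KD H3. The shares were 14.6% and 14.97% in GFP_KD H3K23ac, and 16.1% and 16.4% in enok_KD H3K23ac. The 4 groups did not overlap. Shares in both enok_KD libraries lay above those in both GFP_KD libraries for 16.3% of the 203 elements with a mean of at least 10 reads in H3, and for 14.8% in H3K23ac. All H3K23ac libraries lay above all H3 libraries for 29.1% of them. The 95% Wilson interval of the smallest library, enok_KD H3K23ac replicate 1, was 15.98% to 16.3%, which covers counting error only, as do the other intervals.

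ROO_LTR gave 2976 and 3921 reads in GFP_KD H3, 1989 and 2092 in enok_KD H3, 5351 and 4825 in GFP_KD H3K23ac, and 2518 and 4265 in enok_KD H3K23ac. Its share was 0.585% ± 0.0552 in GFP_KD H3 and 0.477% ± 0.0444 in enok_KD H3 (SD, n = 2 each). In H3K23ac the share was 1.54% ± 0.128 in GFP_KD and 1.36% ± 0.139 in enok_KD (SD, n = 2 each). While the share of ROO_I was higher in enok_KD with both antibodies, the mean share of ROO_LTR was lower, though its H3K23ac libraries overlapped (1.44% and 1.63% against 1.26% and 1.46%). Both parts together took 7.05% ± 0.00474 of the transposon reads in GFP_KD H3, 8.60% ± 0.126 in enok_KD H3, 16.3% ± 0.363 in GFP_KD H3K23ac and 17.6% ± 0.350 in enok_KD H3K23ac (SD, n = 2 each).

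**Figure D1:**
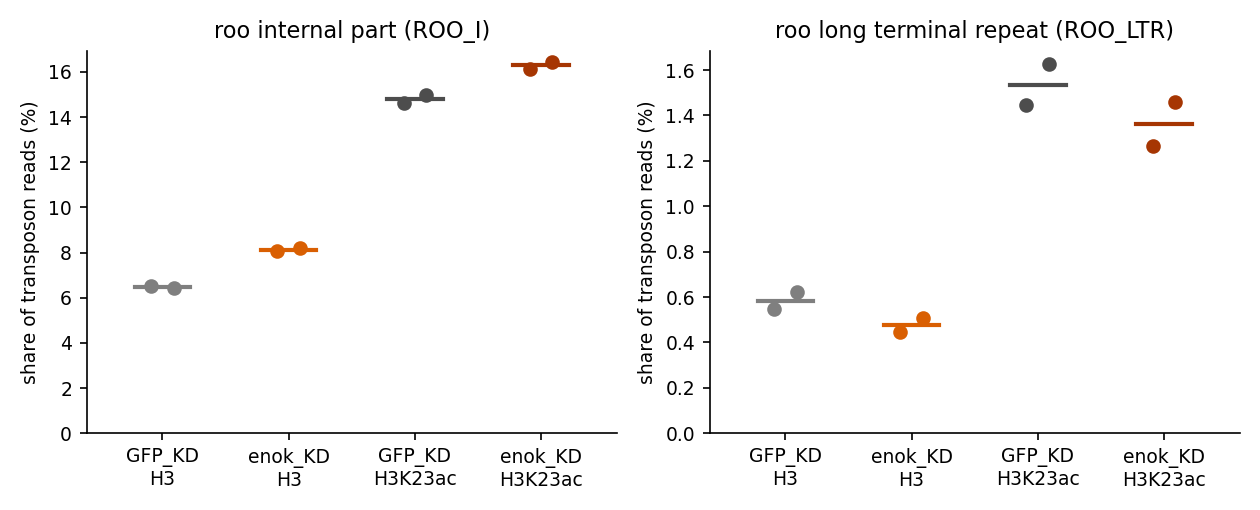
Share of all transposon reads, in percent, taken by ROO_I (left) and ROO_LTR (right). Points are libraries and bars are means of 2 replicates. ROO_I goes from 6.46% in GFP_KD H3 to 16.3% in enok_KD H3K23ac, and ROO_LTR lies at or under 1.63% in every library.

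ROO_I ranked first of all elements in 6 libraries and second in both enok_KD H3 libraries. The next elements by mean count were DNAREP1_DM, SAR_DM, R1_DM, HETA and FW_DM. R1_DM, a retrotransposon that inserts into ribosomal DNA, took 9.14% of the reads in enok_KD H3 replicate 1. SAR_DM took 9.33% in replicate 2. These are shares of reads and are not per length, so they do not rank the elements by density of signal. In enok_KD the H3 shares of R1_DM (7.17% and 9.14%) and SAR_DM (7.03% and 9.33%) spread far more between replicates than the share of ROO_I. ROO_LTR ranked between 39 and 49 in the H3 libraries and between 13 and 19 in the H3K23ac libraries.

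H3K23ac relative to H3 was high on both parts of roo. Counts of 203 elements with a mean of at least 10 reads were fitted with edgeR's quasi-likelihood test, in which log2 values are relative to the typical element (TMM scaling) and p-values are Benjamini-Hochberg adjusted over all 203. In GFP_KD, H3K23ac per H3 of ROO_I was 1.28 ± 0.12 on the log2 scale (SE, n = 2 against 2, adjusted p = 9.40e-05), or 2.42-fold. That of ROO_LTR was 1.47 ± 0.14 (SE, n = 2 against 2, adjusted p = 9.40e-05 in edgeR), or 2.78-fold. These were the 21st and the 12th highest values of the 203 elements. Both roo rows were among the 73 elements called higher in GFP_KD, 36% of those tested, so a call of this kind was common. Next to ROO_I in that order stood DM297_I (1.27) and Transib-N1_DM (1.29), and next to ROO_LTR stood XDMR_DM (1.47) and P_DG (1.497).

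In enok_KD, H3K23ac per H3 was 1.04 ± 0.12 for ROO_I (log2, SE, n = 2 against 2, edgeR adjusted p = 0.000168) and 1.55 ± 0.14 for ROO_LTR (adjusted p = 5.91e-05). ROO_I was then 2.05-fold and ROO_LTR 2.92-fold, the 31st and the 12th highest values. Here 65 elements were called higher, 32% of those tested. With scaling by the piRNA cluster counts instead, H3K23ac per H3 was 2.07 for ROO_I and 2.26 for ROO_LTR in GFP_KD, and 1.80 and 2.31 in enok_KD (log2), so the size of these values depends on the reference. This scaling called 128 higher and 26 lower in GFP_KD (73 and 66 here) and 128 higher and 18 lower in enok_KD (65 and 57 here). Both roo rows passed in both knockdowns under each of the 14 alternatives.

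**Figure D2:**
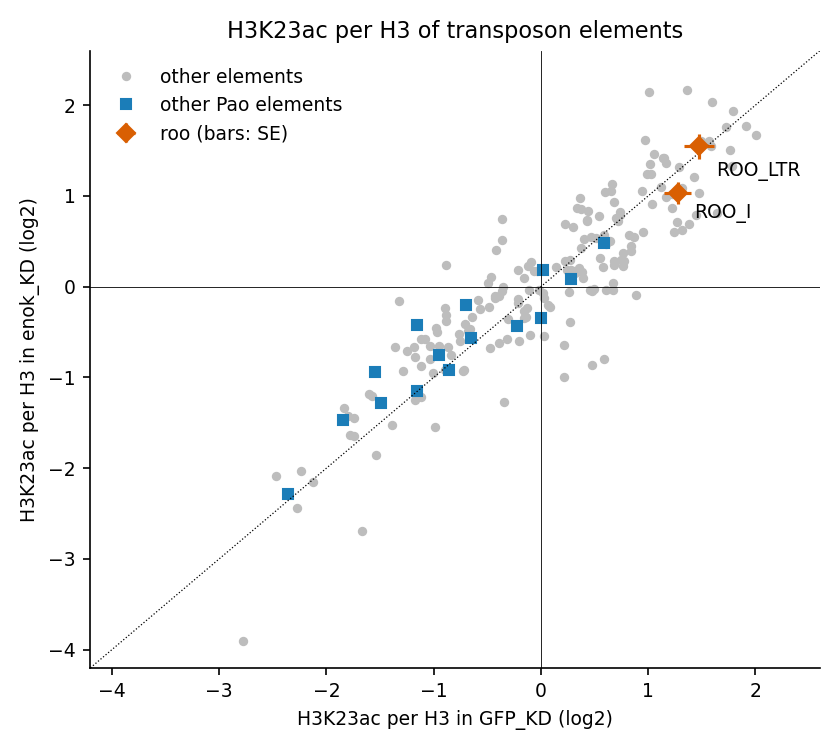
H3K23ac per H3 (log2, relative to the typical element) in GFP_KD on the x axis and enok_KD on the y axis, 1 point per element, with the other Pao elements as squares and roo as diamonds with SE bars. ROO_LTR (1.47 and 1.55) lies close to the dotted line of equal values and ROO_I (1.28 and 1.04) just below it, both to the upper right of the other Pao elements.

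Roo stood at the top of its own class. The tables held 18 rows of class Pao, of which 16 were not roo and 15 of these could be tested (TRAM_LTR had a mean under 10 reads). In GFP_KD, 1 of the 15 was called higher (DIVER_LTR, 0.59), 10 were called lower (32.5% of all elements were) and 4 did not pass, with a median of -0.86 against 0.14 over all elements. NINJA_I was the lowest at -2.36. In enok_KD none of the 15 was called higher and 7 were called lower in edgeR (28.1% of all elements were), with a median of -0.57 against 0.04 over all elements. Of the 8 other internal parts, 6 were called lower in GFP_KD and 5 in enok_KD. The internal parts of Pao elements code for the same kinds of proteins as that of roo, and the highest of them after ROO_I was DIVER_I, at 0.0046 in GFP_KD and -0.34 in enok_KD.

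The closest namesake in the tables, ROOA, differed from roo. ROOA_I gave 1978 and 2332 reads in GFP_KD H3 and 853 and 626 in GFP_KD H3K23ac. Its H3K23ac per H3 was -0.65 ± 0.13 in GFP_KD (log2, SE, n = 2 against 2, edgeR adjusted p = 0.00205) and -0.57 in enok_KD (adjusted p = 0.00577). The intervals of ROO_I (1.00 to 1.56) and ROOA_I (-0.95 to -0.35) in GFP_KD lay far apart. For ROOA_LTR the value was 0.02 in GFP_KD and 0.18 in enok_KD, and neither passed (edgeR adjusted p = 0.883 and 0.276).

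**Figure D3:**
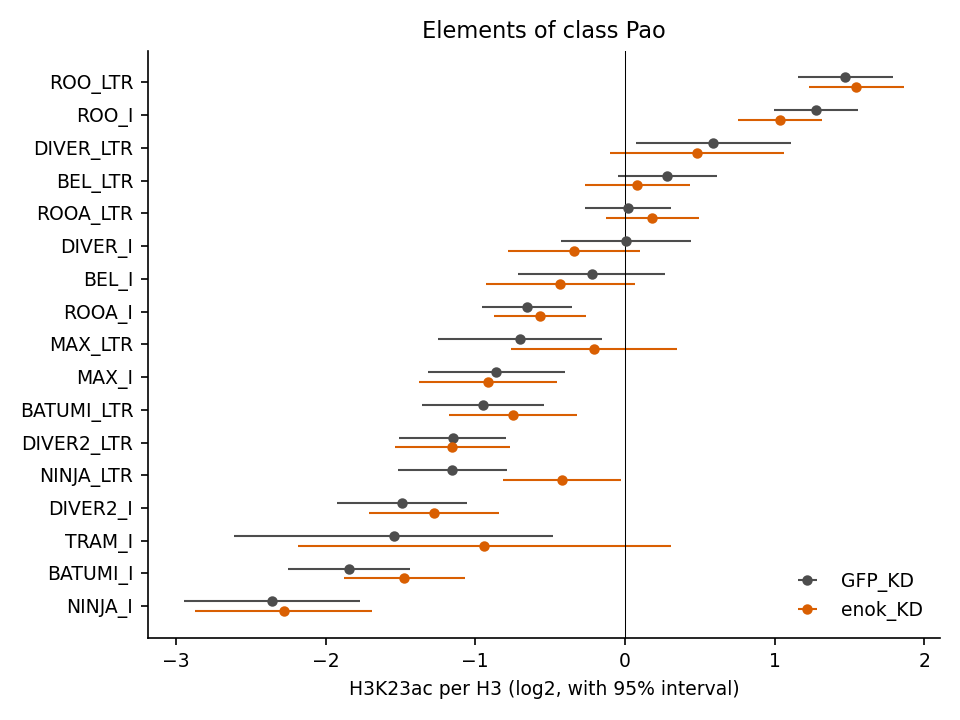
H3K23ac per H3 (log2) for the 17 tested rows of class Pao, ordered by their value in GFP_KD, with 95% intervals from edgeR for both knockdowns. ROO_LTR and ROO_I are the 2 highest rows, and NINJA_I at -2.36 in GFP_KD is the lowest.

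The change of H3K23ac per H3 upon enok knockdown was small for both parts of roo and did not pass the test. It was -0.24 ± 0.17 on the log2 scale for ROO_I (SE, n = 2 per group, 95% interval -0.63 to 0.15, edgeR adjusted p = 0.504). For ROO_LTR it was 0.07 ± 0.19 (95% interval -0.37 to 0.51, adjusted p = 0.840). As a fold, the interval of ROO_I ran from 0.647 to 1.11, so the libraries bounded the change only loosely. None of the 203 elements passed in edgeR (0% called), while 29 had an unadjusted p under 0.05 and DESeq2 called 5. The median over all elements was 0.05 and that of the other 15 Pao rows 0.08, from -0.35 for DIVER_I to 0.73 for NINJA_LTR, and none of these passed. MDG3_LTR (-0.25) and BURDOCK_LTR (-0.23) were next to ROO_I in the order of this change, and CIRCE (0.06) and MINOS (0.08) next to ROO_LTR. Leaving out enok_KD replicate 1 or replicate 2, with the lone library taken to vary like the other groups, gave -0.24 and -0.19 for ROO_I. Without GFP_KD replicate 1 the change of ROO_I was -0.30, the lowest of the 4 fits with a replicate left out. No p-value is given for any of these fits, since each left 1 library in a group.

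H3 and H3K23ac on ROO_I were also compared each on its own. The H3 level, in log2 CPM (counts scaled to library size), was 15.87 and 15.83 in the GFP_KD libraries, against 16.43 and 16.34 in those of enok_KD. The H3K23ac level was 17.10 and 17.15 in the GFP_KD libraries, against 17.45 and 17.40 in those of enok_KD. With both antibodies the enok_KD libraries lay above the GFP_KD libraries, and the 4 groups did not overlap. Such a separation in this direction was seen in 37.4% of elements for H3 and 30.5% for H3K23ac, and 2 libraries against 2 cannot give an exact permutation p under 0.333.

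In the fit, H3 on ROO_I was 0.54 ± 0.12 higher in enok_KD on the log2 scale (SE, n = 2 against 2, 95% interval 0.26 to 0.81), a fold of 1.45. The edgeR adjusted p was 0.0607 (unadjusted 0.00179, the 6th lowest of 203), so the change was not called. The 5 elements called, 2.46% of those tested, were all higher in enok_KD. They were TLD2, Copia_LTR, ALUII_DM, ROVER-I_DM and DMSAT6, and were picked out after their values were seen. With total count scaling 6 were called higher and 42 lower. ROO_I was the 30th highest change, next to STALKER4_I (0.52) and RSP (0.54). Its H3 was higher in enok_KD under all 13 alternatives, from 0.33 to 0.56. With all replicates kept, 5 of these passed the threshold, among them DESeq2 (0.45, adjusted p = 0.0189), and 4 did not. Leaving out enok_KD replicate 1 or 2 gave 0.49 and 0.50. Without GFP_KD replicate 1 the H3 change was 0.56. Each of these fits left 1 library in a group, so the spread came from the other groups and no p-value is given. Relative to the median of all elements the H3 change was 0.50, and it stayed between 0.45 and 0.51 under every alternative.

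H3K23ac on ROO_I was 0.30 ± 0.12 higher in enok_KD (log2, SE, n = 2 against 2, 95% interval 0.02 to 0.57) with an edgeR adjusted p of 0.285 (unadjusted 0.0370). No element passed for H3K23ac in edgeR (0% called), 32 had an unadjusted p under 0.05, and DESeq2 called 4. The median change of H3K23ac over all elements was 0.13. BATUMI_LTR (0.29) and DMLTR5 (0.30) had about the same change as ROO_I. Leaving out enok_KD replicate 1 gave 0.25 and leaving out replicate 2 gave 0.31. Without GFP_KD replicate 2 the change of ROO_I was 0.31. Each of these fits again left 1 library in a group, so no p-value is given.

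With TMM scaling, ROO_LTR, the part that holds the promoter, gave nearly equal levels in both knockdowns. In log2 CPM, its H3 level was 12.30 and 12.46 in the GFP_KD libraries, against 12.25 and 12.34 in those of enok_KD. For H3K23ac the levels were 13.76 and 13.95 in the GFP_KD libraries, against 13.77 and 13.90 in those of enok_KD. On this scale the groups overlapped with both antibodies. As a share of transposon reads, its H3 was 0.546% and 0.624% in GFP_KD against 0.446% and 0.509% in enok_KD. The changes were -0.09 ± 0.14 for H3 and -0.01 ± 0.14 for H3K23ac (log2, SE, n = 2 against 2, edgeR adjusted p = 0.694 and 0.958). Without enok_KD replicate 2 the H3 change was -0.22, and without GFP_KD replicate 2 its sign turned (0.0041). Over all 13 alternatives, which include other scalings, the H3 change of ROO_LTR ran from -0.29 to 0.0041. ROOA_I and ROOA_LTR had lower mean levels in enok_KD, by H3 changes of -0.36 and -0.32 (edgeR adjusted p = 0.133 and 0.138), and neither passed. Their enok_KD libraries lay below both GFP_KD libraries with both antibodies, as in 28.6% of elements for H3 and 13.8% for H3K23ac.

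**Figure D4:**
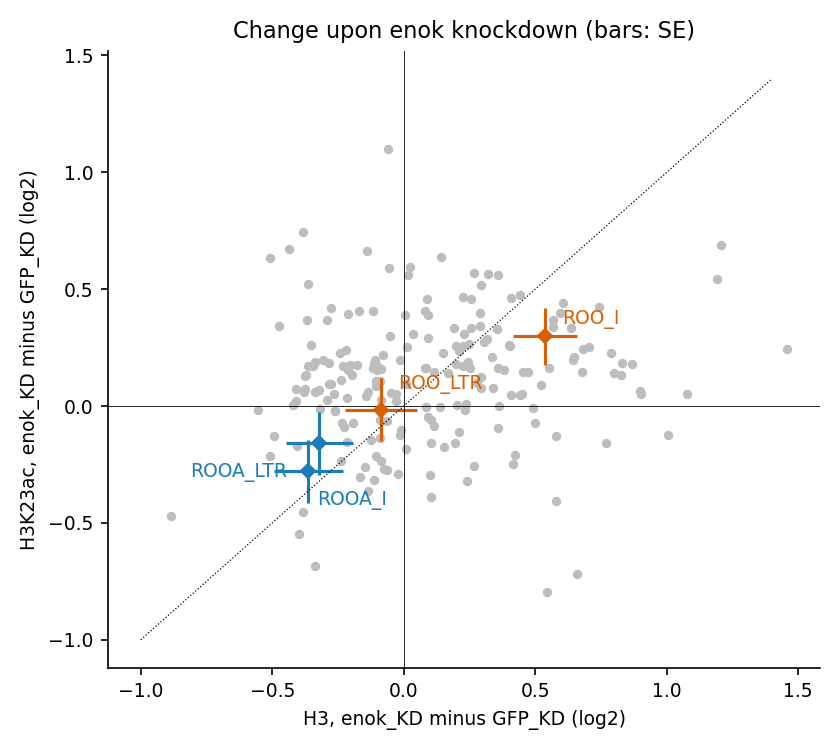
Change from GFP_KD to enok_KD (log2, relative to the typical element) in H3 on the x axis and in H3K23ac on the y axis, 1 point per element, with SE bars for roo and ROOA. ROO_I (0.54 and 0.30) lies below the dotted line of equal change, ROO_LTR (-0.09 and -0.01) near the origin, and both ROOA rows in the lower left.

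Since both parts of roo were read in the same libraries, the LTR reads per internal read can be compared without any scaling between libraries. This comparison was chosen after the values of both parts were seen. Per 100 ROO_I reads, the GFP_KD H3 libraries held 8.39 and 9.71 ROO_LTR reads and the enok_KD H3 libraries 5.53 and 6.22. The H3K23ac libraries held 9.87 and 10.9 for GFP_KD and 7.83 and 8.88 for enok_KD. The enok_KD libraries were lower with each antibody, without overlap, as in 36.5% of 52 families for H3 and 21.2% for H3K23ac.

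The ratio was tested with limma over the 52 LTR families with both rows above the count minimum. Over both antibodies, LTR per internal part of roo was lower in enok_KD by a log2 change of -0.47 ± 0.099 (SE, 4 libraries against 4, 95% interval -0.68 to -0.26, limma adjusted p = 0.00646), a fold of 0.723. The H3 and H3K23ac libraries of a replicate number were counted as separate samples here. Over all elements, their deviations correlated at 0.715 in enok_KD and -0.047 in GFP_KD. With 2 replicates per knockdown, this SE and adjusted p may thus be too small. Only 2 families were called lower, 3.85% of those tested, roo and TRANSPAC (-0.65), and 4 (7.69%) were called higher, Copia, Gypsy10, Gypsy12 and NOMAD. The median over families was -0.01. In H3 alone the change of roo was -0.62 ± 0.14 (SE, n = 2 against 2, limma adjusted p = 0.00616), the 4th lowest of 52, with 13.5% of families called lower. In H3K23ac alone it was -0.31 ± 0.14 (limma adjusted p = 0.236, 0% called, 10 families at an unadjusted p under 0.05), and -0.40 without enok_KD replicate 2. The difference between both antibodies was 0.31 ± 0.20 and did not pass (limma adjusted p = 0.475, 3.85% called). With the replicate number as a factor shared over all groups, that difference passed (limma adjusted p = 0.0299). The change in H3K23ac alone then passed too (adjusted p = 0.00719), but the numbers were not taken as pairs.

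The direction of this change held under all 8 alternatives, between -0.56 and -0.38, but the call did not. It was lost without a trend of the variance on the mean (limma adjusted p = 0.0681). The change was -0.55 without GFP_KD replicate 1 and -0.38 without GFP_KD replicate 2. It was -0.38 without enok_KD replicate 1 and -0.56 without enok_KD replicate 2. In H3 alone it was -0.73 without GFP_KD replicate 1 and -0.52 without replicate 2. Each of these fits left 1 library in a group, so no p-value is given and they do not show whether the call held. None of the other 7 Pao families was called (limma, 17 of all 52 at an unadjusted p under 0.05). For ROOA the change was 0.08 ± 0.12 (SE, limma adjusted p = 0.613).

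LTR per internal part was also compared between antibodies. In GFP_KD it was 0.20 ± 0.14 higher in H3K23ac than in H3 (log2, SE, n = 2 against 2, limma adjusted p = 0.315), with 26.9% of families called higher. With the replicate number as a shared factor, this GFP_KD value passed (limma adjusted p = 0.0154). In enok_KD the LTR per internal part was 0.51 ± 0.14 higher in H3K23ac (limma adjusted p = 0.00793), with 48.1% of families called higher and a median of 0.49. The LTR of roo thus carried more H3K23ac per H3 than its internal part in enok_KD, by about as much as the median family. For ROOA the values were 0.68 in GFP_KD and 0.75 in enok_KD (limma adjusted p = 0.00661 and 0.0025).

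**Figure D5:**
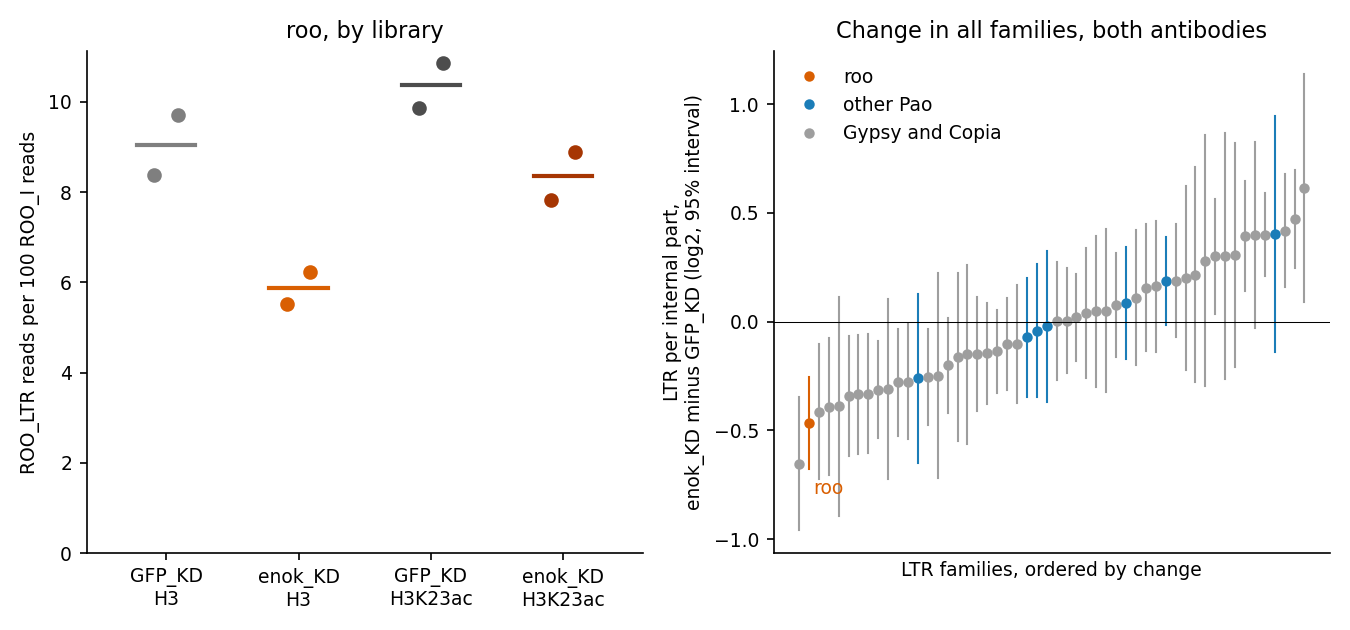
Left, ROO_LTR reads per 100 ROO_I reads in each library, with bars at the mean of 2 replicates. Right, the log2 change of LTR per internal part from GFP_KD to enok_KD over both antibodies, for 52 families in order of their change. The 95% intervals count all libraries as separate samples. Roo at -0.47 is the 2nd lowest.

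The profile of ROO_I over the libraries was set against that of the 171 other elements with a mean of at least 100 reads. Over the 8 libraries, the highest Pearson correlations of log2 CPM with ROO_I were those of FB4_DM (0.982), I_DM (0.972), DM412 (0.971), BLOOD_I (0.968) and POGON1 (0.965). ROO_LTR came 23rd with 0.915. These values describe 8 libraries that fall into 2 antibodies, so they mostly follow the difference between H3 and H3K23ac. With group means taken away, Invader4_I (0.956), CIRCE (0.932), Gypsy4_LTR (0.878), DMLTR5 (0.847) and G5A_DM (0.834) were the highest. ROO_LTR was then 110th with -0.30. The 2 libraries of a group deviate by equal and opposite amounts, so these values rest on 1 difference in each of 4 groups. They allow no conclusion about whether both parts of roo deviated together.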

How the data were processed

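ChIP was done on pooled ovaries with antibodies to H3 and to H3 acetylated at lysine 23, and sequenced as single-end reads. Per the labels and methods, the authors mapped reads with Bowtie2 2.2.1 to dm3, keeping unique perfect matches, and the notes also name Trimmomatic and bedtools. The deposited tables hold raw read counts per transposon element and per piRNA cluster, not normalised; the counting rule, the repeat annotation and the treatment of duplicates are not given in the sources used here. Unique mapping drops reads shared by identical copies, so diverged copies weigh more. The cluster tables also hold the authors' DESeq2 fold changes and p-values, which were not used.

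Counts of 203 of 215 elements with a mean of at least 10 were fitted in edgeR 4.0.16 (R 4.3.3; TMM, quasi-likelihood test, 4 groups of 2, no covariate, adjusted p under 0.05). Log2 CPM used a prior count of 2. The 53 families with both rows were joined by name, and log2((LTR + 0.5)/(internal + 0.5)) was tested with limma 3.58.1 in the 52 with enough reads. Scripts were tested on simulated data. Alternatives were DESeq2 1.42.0, voom, other scalings and filters, replicate blocks and leaving out replicates. Named elements were both roo and ROOA rows, the Pao class as a group, the 5 next in mean count, the 5 most alike in profile, and the neighbours in each order. The members and lists were chosen with earlier results of these data known. No sequence of roo was used here.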

Additional observations from a re-analysis of the deposited data

How the results depend on the processing

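H3K23ac per H3 of roo passed in both knockdowns under all 10 alternatives that kept all replicates. With scaling factors from the piRNA cluster counts the median of all elements moved by 0.79 in GFP_KD and 0.76 in enok_KD. ROO_I minus the median stayed at 1.13 in GFP_KD. H3 on ROO_I was called with total count scaling (0.33), total count without roo (0.35), DESeq2 (0.45), voom (0.54) and a replicate block shared over all groups (0.54), and ranged from 0.49 to 0.56 with a replicate left out. Total count moved the median of all elements by -0.21 in H3 and -0.16 in H3K23ac, and the filter at 100 reads moved it by -0.18 in GFP_KD for the ratio. Elements called for H3 (5) numbered 2 with DESeq2 size factors, 48 with total count, 34 with total count without roo, 3 with cluster factors, 0 with a mean of at least 100 reads, 26 with DESeq2, and 0 to 114 with a replicate left out. Calls for the change of the ratio (0) numbered 5 with DESeq2, 65 with a replicate block within each knockdown and 0 to 78 with a replicate left out; those for H3K23ac (0) numbered 4 with DESeq2, 1 with the shared block and 0 to 79. With a replicate left out, calls for H3K23ac per H3 in GFP_KD (139) ranged from 64 to 175 and in enok_KD (122) from 97 to 144; with the block within each knockdown they numbered 168 and 147, and with cluster factors 154 and 146. With a replicate left out, ROO_I ranged from -0.30 to -0.19 for the ratio change and from 0.25 to 0.31 for H3K23ac, and ROO_LTR from -0.22 to 0.0041 for H3 and from -0.12 to 0.071 for H3K23ac. ROO_LTR changed sign without GFP_KD replicate 2 in H3 (0.0041) and H3K23ac (0.071), and without enok_KD replicate 1 in H3K23ac (0.025). Fits with a replicate left out hold 1 library in a group, so their numbers of calls do not compare with those of the full fit. The cause of these differences was not tested.

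The alternatives for LTR per internal part were chosen after seeing the data. For both antibodies the change was -0.47 without a variance trend, and -0.56 to -0.38 with a replicate left out; for H3 it was -0.73 to -0.52, and for H3K23ac -0.40 to -0.22. Families called (6 and 9) numbered 0 and 5 without the trend, and 0 to 23 and 1 to 18 with a replicate left out. LTR per internal part of roo was higher in the library numbered 2 in all 4 groups, and under the shared replicate block roo also passed for H3K23ac (-0.31, limma adjusted p = 0.00719), in GFP_KD (0.20, adjusted p = 0.0154) and in the difference between antibodies (0.31, adjusted p = 0.0299). Same-numbered libraries did not deviate together throughout (correlations from -0.500 to 0.715), so the numbers were not taken as pairs. With crossed numbers in the H3 libraries alone, added after seeing the data, calls went from 29 to 53 of 205. As a share of transposon and cluster reads together, roo took 6.31% and 7.69% of H3 reads in GFP_KD and enok_KD, and 14.96% and 15.9% of H3K23ac reads. With 2 replicates per group and more variable enok_KD libraries, changes below about 0.4 (log2) in the ratio of ROO_I could not be told from 0. This limit is that of the 95% interval before adjustment. The size needed for a call after adjustment was not worked out and can be larger.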
